A study of Oryzias latipes with 2 samples.

Results

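Pigment cells of fish skin are steered by receptors on their surface and by cyclic AMP (cAMP) inside them. Receptor tyrosine kinases keep the different pigment lineages alive and separate, while receptors coupled to G proteins raise or lower the activity of adenylyl cyclase, the enzyme that makes cAMP. In teleost pigment cells the level of cAMP sets how far pigment organelles spread along microtubules, and leucophores and melanophores are known to move their organelles in opposite directions in response to the same hormone or nerve signal. The 10 genes described here cover this path from outside to inside. They are the receptor genes csf1ra, ltk, erbb3b, ngfrb, mc1r, oprl1 and rxfp2a, the adenylyl cyclase gene adcy5, the G protein regulator gene rgs16 and the peptide gene kiss1. They were picked by name, with their levels in these cells known, out of 23601 features, and all 10 were found as 1 feature each in both libraries.

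The cells came from skin and scales of adult medaka (Oryzias latipes) of the inbred HdrR strain, labelled WT, male and female, with the genotype note "Southern phenotype". They were dissociated with TrypLE at 37 °C for 1 h, stained with the nuclear dye Draq5 and sorted. The submitters' design text describes enriching for pigment cells by GFP and mCherry fluorescence; what carried these signals and where the gates lay is not given in the sources used here. Cells were then loaded for droplet sequencing of transcript 3′ ends in 2 experiments aimed at 10000 and 1000 cells, called run 1 and run 2 here. Both runs carry the same labels and form 1 group, and the labels do not say whether they came from separate fish. Cells were placed in classes by UMIs (unique molecular identifiers, each standing for 1 captured transcript) of marker genes, and none of the 10 genes was used for this.

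Run 1 gave 4347 cells and run 2 gave 556 after filtering, with medians of 4145 and 10198 UMIs per cell, and the runs shared 0 cell barcodes. Xanthophores, the yellow carotenoid and pteridine cells (scarb1 of at least 2 and sox5 of at least 1 UMI), numbered 1653 in run 1 and 5 in run 2. Leucophores, the white cells (slc23a4 of at least 3 and pax7a of at least 1 UMI, with scarb1 at 1 or 0 and sox5 at 0), numbered 18 and 193. Iridophores, the cells with guanine crystals (pnp4a of at least 5 and GPNMB of at least 1 UMI), numbered 15 and 0, and melanophores (pmela of at least 3 UMIs with another melanin gene) 2 and 8. The run and the pigment class are therefore nearly confounded, and a class with fewer than 10 cells in a run enters no ratio and is only described. Only some markers outside the gates are given here, several for their own class alone, and not all followed the class names. The pteridine gene gch2 was listed for both leucophores and xanthophores, so it is no check of either name. It stood at 3836 and 3105 CPM (UMIs of the gene scaled to the UMIs of the class) in leucophores of runs 1 and 2. In xanthophores of run 1 it stood at 2427 CPM. The guanine deaminase gene gda stood at 95.2 and 276 CPM in leucophores, the lipid droplet gene plin6 at 778 CPM in xanthophores, and apoda.1 at 10758 CPM in iridophores. Against the names, slc2a15b, listed for leucophores, stood at 242 and 343 CPM in leucophores of runs 1 and 2 and at 329 CPM in xanthophores. The carotenoid gene bco1l had 1 UMI in all xanthophores of run 1, and the leucophore gate gene slc23a4 stood at 1207 CPM in iridophores. Keratinocytes, with 1158 and 208 cells, stand for cells that should lack pigment genes. Of their 42 listed markers 21 were matched, and the summed list stood at 72372 and 61972 CPM in keratinocytes, and at 2511 and 479 CPM in leucophores, 3061 CPM in iridophores and 1762 CPM in xanthophores of run 1. The 5 xanthophores of run 2 went partly against their label: the keratinocyte list stood at 10125 CPM there, gch2 at 567 CPM and gda at 130 CPM, and they are left out of every comparison.

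**Figure D1:**
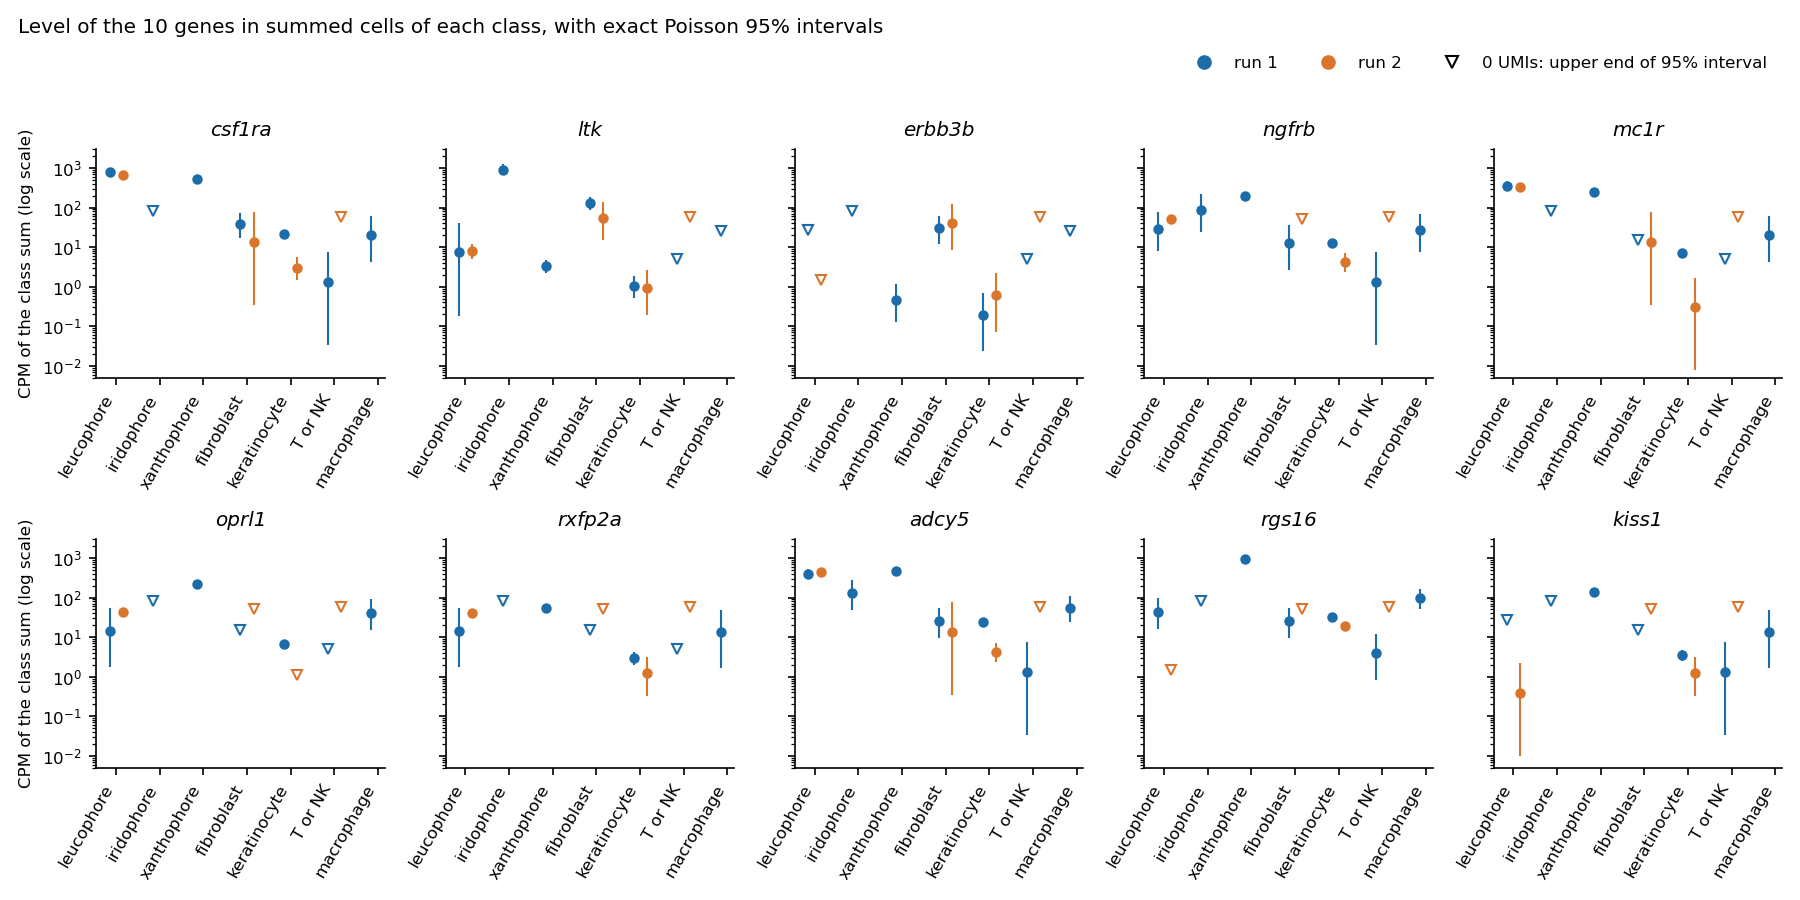
Level of each of the 10 genes (CPM, log scale) in the summed cells of each class in run 1 (blue) and run 2 (orange), for classes with at least 10 cells, where bars are exact Poisson 95% intervals and open triangles mark the upper end of that interval where 0 UMIs were counted. csf1ra, mc1r and adcy5 were high in leucophores of both runs and in xanthophores, ltk was high in iridophores, and rgs16 and kiss1 were high in xanthophores alone among the pigment classes shown.

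Of the receptor tyrosine kinase genes, csf1ra (ENSORLG00000004849) encodes the receptor for colony-stimulating factor 1 that xanthophores need in zebrafish. It stood at 805 CPM (95% interval 662 to 970, 110 UMIs) in leucophores of run 1 and 655 CPM (623 to 687) in run 2 leucophores, against 534 CPM (518 to 549) in xanthophores of run 1. Within run 1 it was thus 1.51-fold higher in leucophores, with an exact 95% interval of 1.24 to 1.82. With TMM scaling, which allows for differences in composition between classes, the ratio was 1.19 and its interval of 0.978 to 1.44 included equality. These intervals, like all others here, cover counting error only and say nothing of the spread between fish. In iridophores 0 UMIs were counted, at least 8.25-fold lower than in xanthophores when set against 3 UMIs. Macrophages or antigen-presenting cells, which carry the receptor in mammals, held 3 csf1ra UMIs in 57 cells of run 1, or 20.5 CPM, beside 21.6 CPM in keratinocytes. All 8 melanophores of run 2 had 0 csf1ra UMIs, with an interval of up to 78.8 CPM.

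The gene ltk (ENSORLG00000015434) encodes leukocyte tyrosine kinase, the receptor that iridophores depend on in zebrafish. It was detected in all 15 iridophores of run 1, with 42 UMIs and 905 CPM (653 to 1224), against 28 UMIs and 3.27 CPM in 1653 xanthophores. The ratio was 277, with an interval of 168 to 464, or 143 (86.7 to 240) with TMM scaling. Leucophores held it at 7.32 and 7.97 CPM in runs 1 and 2, in 1 of 18 and 14 of 193 cells, against 1.06 and 0.914 CPM in keratinocytes. In run 2, the leucophore level was 8.72-fold that of keratinocytes (2.59 to 45.8), on 20 and 3 UMIs. These low levels moved with the choice of cells: with slc23a4 of at least 6 UMIs ltk stood at 4.50 CPM in run 2 leucophores, and as a mean over cells at 24.7 CPM. In xanthophores it stood at 1.60 CPM with the stricter gate (scarb1 of at least 5 and sox5 of at least 2 UMIs) and at 6.24 CPM as a mean over cells.

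Among the other classes, fibroblasts held more ltk per UMI than xanthophores or keratinocytes did. They held 131 CPM in run 1, from 31 UMIs in 16 of 58 cells, and 54.8 CPM in run 2, from 4 UMIs in 3 of 13 cells. Unassigned cells held a further 68 UMIs in 33 cells of run 1. Some of these 33 cells held iridophore genes, with alx4b in 12, pnp4a in 10, apoda.1 in 10 and GPNMB in 7. The matrix gene dcn was seen in 20 of them. Set beside the iridophores, the 16 fibroblasts with ltk had 0 UMIs of GPNMB and of apoda.1, against 1940 and 10758 CPM of these genes in iridophores. The iridophore gene alx4b was present in them, at 87.5 CPM (7 UMIs in 4 cells). It stood at 50.9 CPM in fibroblasts of run 1 without ltk and 2156 CPM in iridophores. Their collagen gene col1a2 stood at 39147 CPM and the matrix gene dcn at 7362 CPM, while iridophores had 0 UMIs of both. Of 21 matched fibroblast markers iridophores had 14 at 0, yet the summed list stood at 1509 CPM (70 UMIs) in iridophores, against 218 CPM in xanthophores and 117 CPM in leucophores of run 1. Its part in the ltk level was not tested. The fibroblast gate itself uses col1a2, dcn, col1a1a, lum and postnb among its markers and keeps pnp4a at 1 UMI or fewer. The iridophore gate uses pnp4a and GPNMB. The values of these genes therefore describe the cells and are not a check of either gate. The matrix gene postnb, chosen after its values were seen, stood at 2687 CPM in the 16 fibroblasts with ltk and 783 CPM in the 42 without. Its UMIs lay in 8 of the 16 and 14 of the 42 cells. In run 2 it stood at 6052 CPM in the 3 fibroblasts with ltk and 1066 CPM in the other 10. The difference was not particular to postnb. In fibroblasts of run 1 with ltk and without, col1a2 stood at 39147 and 15126 CPM, col1a1a at 4100 and 1515 CPM and dcn at 7362 and 4887 CPM. In run 2 dcn stood at 5988 and 4175 CPM and col1a1a at 1465 and 1136 CPM, while col1a2 went the other way, at 10957.5 and 13050 CPM. For lum the intervals of run 1 overlapped, at 1887 CPM (1598 to 2214) and 1578 CPM (1388 to 1787), and run 2 had 1975 and 699 CPM. A dcn UMI was seen in all 16 fibroblasts of run 1 with ltk and 36 of the 42 without. In run 2 it was seen in all 3 and in 6 of 10. Whether cells without dcn lowered the sums of fibroblasts without ltk was not tested.

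**Figure D2:**
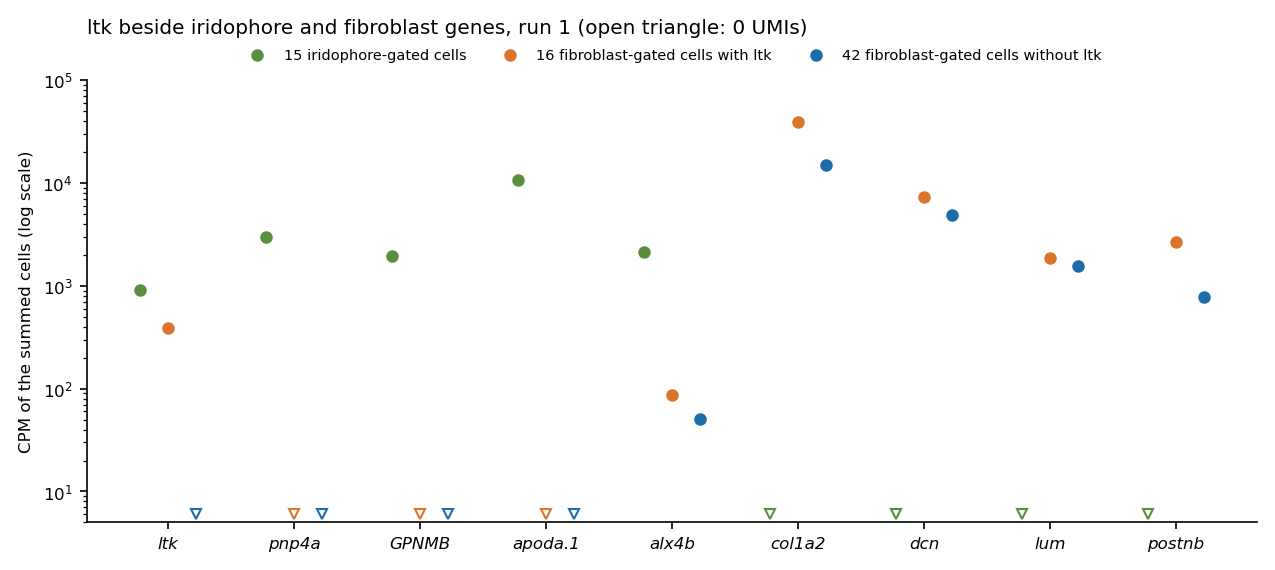
CPM (log scale) of ltk, 4 iridophore genes (pnp4a, GPNMB, apoda.1, alx4b) and 4 genes of matrix-forming cells (col1a2, dcn, lum, postnb) in the iridophores of run 1 and in fibroblasts of run 1 with and without an ltk UMI, with open triangles at the lower edge for 0 UMIs. The fibroblasts with ltk had no UMIs of GPNMB or apoda.1 but held alx4b at 87.5 CPM, and the iridophores had none of the 4 matrix genes shown.

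The gene erbb3b (ENSORLG00000007685) encodes a neuregulin receptor that adult melanophores need in zebrafish. It was nearly undetected in pigment cells. It had 0 UMIs in 18 and 193 leucophores, where the exact interval for a share of cells with a UMI reaches 1.89% in run 2, and 0 in 15 iridophores and 10 melanophores. Xanthophores held 4 UMIs in 3 of 1653 cells, or 0.467 CPM (0.127 to 1.20), against 0.193 CPM in keratinocytes. Its UMIs lay elsewhere: 12 in 5 unassigned cells and 7 in 1 fibroblast of run 1, and 3 in 2 fibroblasts of run 2. The whole of both runs held 25 and 5 erbb3b UMIs, too few to set classes apart. The 11 cells of run 1 with an erbb3b UMI, over all classes, had 0 UMIs of dcn, col1a1a and postnb. In these 11 cells col1a2 was seen in 2, lum in 1, sox10 in 7, ngfrb in 5 and foxd3 in 2. Of the 3 such cells of run 2, dcn was seen in 1, sox10 in 2 and foxd3 in 1. These counts pool all classes. The fibroblast of run 1 was among the 42 without ltk, which had 0 UMIs of sox10 and of foxd3. Of the 2 fibroblasts of run 2, 1 was among the 3 with ltk, all of which held dcn. The other was among the 10 without ltk and had no dcn. The name of the fibroblasts without dcn among these cells is therefore uncertain.

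The gene ngfrb (ENSORLG00000027270) encodes a p75-type neurotrophin receptor. It stood at 29.3 CPM (7.98 to 75.0, 4 UMIs) in leucophores of run 1 and 51.8 CPM (43.3 to 61.5) in leucophores of run 2, against 197 CPM (187 to 206) in xanthophores of run 1. Within run 1 leucophores were thus 6.71-fold lower (2.62 to 24.7). Iridophores held 86.2 CPM from 4 UMIs, with a ratio to xanthophores of 0.439 and an interval of 0.119 to 1.13 that includes equality, or 0.227 (0.0617 to 0.582) with TMM scaling. In keratinocytes ngfrb stood at 12.7 and 4.27 CPM, and leucophores of run 2 were 12.1-fold above the keratinocytes of that run (6.98 to 22.8).

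Among the receptors coupled to G proteins, mc1r (ENSORLG00000009400) encodes the melanocortin receptor that raises cAMP when it binds melanocyte-stimulating hormone. It stood at 351 CPM (259 to 466, 48 UMIs) in leucophores of run 1 and 328 CPM (305 to 351) in run 2 leucophores, against 247 CPM (236 to 257) in xanthophores of run 1. The ratio within run 1 was 1.42 (1.05 to 1.89), or 1.13 with TMM scaling, where the interval began at 0.827 and included equality. Iridophores had 0 UMIs, at least 3.82-fold lower than xanthophores. Keratinocytes held 7.15 and 0.305 CPM, the second of these from 1 UMI in 208 cells.

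The gene oprl1 (ENSORLG00000026714) encodes the nociceptin receptor, an opioid receptor relative that lowers cAMP through inhibitory G proteins. It stood at 14.6 CPM (1.77 to 52.9, 2 UMIs) in leucophores of run 1 and 42.6 CPM (34.9 to 51.5) in run 2 leucophores, against 219 CPM (209 to 229) in xanthophores of run 1. Within run 1 it was 14.9-fold lower in leucophores, with a wide interval of 4.13 to 124. The 107 UMIs in leucophores of run 2 were uneven: 27 of 193 cells held them, 1 cell had 22, and 92.5% of them lay in the 10% of cells with the most. Keratinocytes of the same run had 0 oprl1 UMIs in 208 cells at a median of 14439 UMIs per cell, against 12725 in the leucophores. Set against 3 UMIs in those keratinocytes, leucophores of run 2 were at least 46.6-fold higher.

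The gene rxfp2a (ENSORLG00000003451) encodes a relaxin-family peptide receptor, whose mammalian relative raises cAMP on binding insulin-like peptide 3. It stood at 14.6 CPM (1.77 to 52.9, 2 UMIs) in leucophores of run 1 and 39.8 CPM (32.4 to 48.5) in run 2 leucophores, against 55.0 CPM (50.1 to 60.2) in xanthophores of run 1. Leucophores of run 1 were 3.76-fold lower, and the interval of 1.03 to 31.1 ends close to equality. Iridophores had 0 UMIs, but 3 UMIs there would equal 64.7 CPM, so no difference from xanthophores could be seen at this depth. The 8 melanophores of run 2 held 17 UMIs in 6 cells, or 363 CPM (211 to 581).

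Downstream, adcy5 (ENSORLG00000009753) encodes an adenylyl cyclase that inhibitory G proteins and calcium turn down. It stood at 403 CPM (303 to 524) in leucophores of run 1 and 449 CPM (423 to 476) in run 2 leucophores, against 467 CPM (452 to 482) in xanthophores of run 1, with a ratio within run 1 of 0.862 (0.648 to 1.12). With TMM scaling the ratio was 0.682 (0.513 to 0.889), so whether the interval includes equality depends on the scaling. Iridophores held it at 129 CPM from 6 UMIs, 3.61-fold lower than xanthophores (1.66 to 9.84); with TMM scaling the ratio was 0.143. The 8 melanophores of run 2 held 68 UMIs in 5 cells, or 1452 CPM (1127 to 1840), and mc1r stood at 704 CPM there (485 to 989) from 33 UMIs in 6 cells. In those 8 cells the melanin genes tyr, oca2 and TYRP1 stood at 1622, 1196 and 747 CPM. The melanophore gate itself counts these genes, so the values describe the cells and are not a check of the gate.

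The gene rgs16 (ENSORLG00000012336) encodes a protein that switches off inhibitory and Gq-type G protein subunits. It was common in xanthophores and nearly missing from leucophores. None of the 193 leucophores of run 2 held a UMI, with an exact interval for that share of up to 1.89%, and the 6 UMIs of run 1 (43.9 CPM, 16.1 to 95.6) lay in 1 of 18 cells. In xanthophores of run 1 it stood at 917 CPM (897 to 938), with a UMI in 73.0% of cells. The ratio within run 1 put leucophores 20.9-fold lower (9.59 to 56.9). Iridophores had 0 UMIs, at least 14.2-fold lower than xanthophores. In run 2, 63 of the 94 rgs16 UMIs lay in 4 of 208 keratinocytes, 49 of them in 1 cell, while 11 lay in 4 of the 8 melanophores and 13 in 2 of the 5 xanthophores.

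The peptide gene kiss1 (ENSORLG00000025285) encodes the precursor of kisspeptin, a ligand best known from the brain circuits of reproduction. It had 0 UMIs in leucophores of run 1 and 1 UMI in run 2 leucophores (0.398 CPM), against 1199 UMIs and 140 CPM (132 to 148) in xanthophores of run 1. Set against 3 UMIs, leucophores of run 1 were at least 6.37-fold lower. Iridophores had 0 UMIs, at least 2.16-fold lower than xanthophores. Of all kiss1 UMIs of run 1, 79.0% lay in gated xanthophores and 18.4% in unassigned cells.

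**Figure D3:**
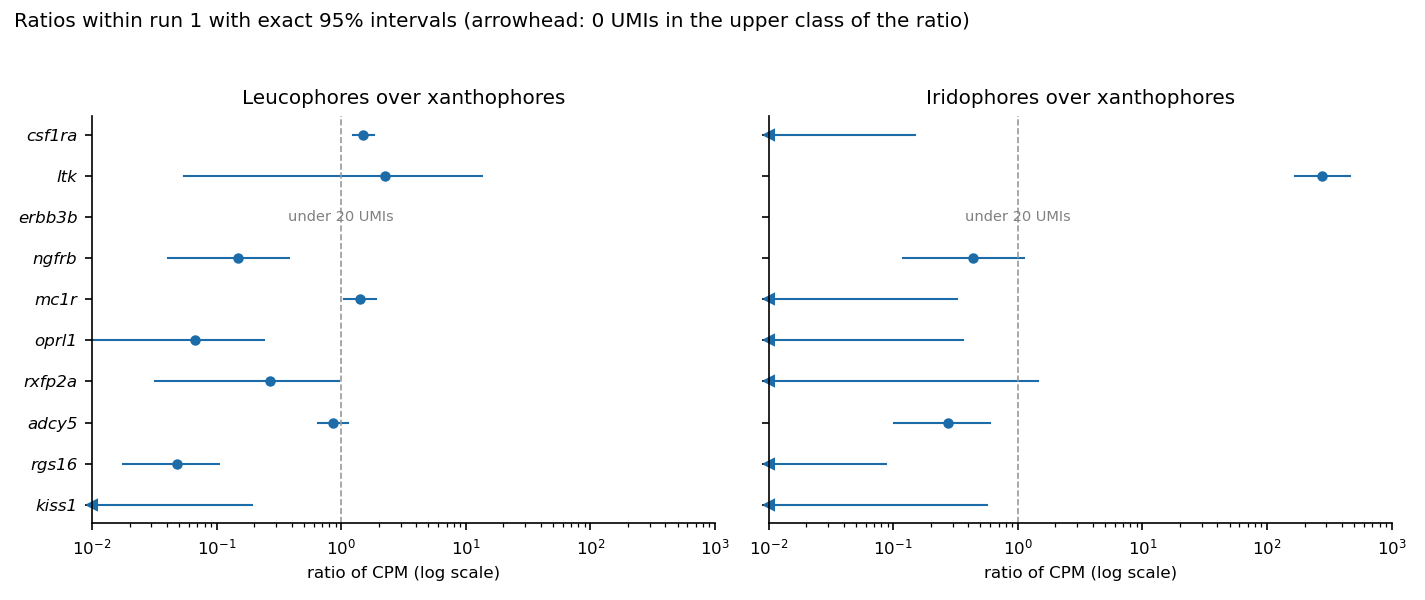
Ratio of CPM (log scale) within run 1 for leucophores over xanthophores and for iridophores over xanthophores, with exact 95% intervals, an arrowhead at the left edge for 0 UMIs in the leucophores or iridophores, a dashed line at equality and no value for erbb3b, which had under 20 UMIs. Scaled to the totals as drawn, for leucophores the intervals of csf1ra and mc1r lie above 1 (with TMM scaling both include it). Those of oprl1, rxfp2a, ngfrb, rgs16 and kiss1, the last with 0 UMIs in leucophores, lie below it, while for iridophores ltk alone lies above 1.

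Counted together, 8 of the 10 genes reached 20 CPM in leucophores or xanthophores of run 1, and ltk and erbb3b did not. Of these 8, 5 were at least 2-fold lower in leucophores (10 CPM added to each side) and 0 were at least 2-fold higher. Over all 5492 features that reached 20 CPM, 17.0% were lower and 16.0% higher, or 33.1% in either direction. The median log2 ratio of the 8 genes was −1.90, beside 0.04 over all features. Since the genes were chosen with these levels known, nothing is read from the count. In iridophores against xanthophores 9 of the 10 genes reached 20 CPM, of which 1 was higher and 8 lower, beside 31.7% and 18.4% of 7069 features and 50.1% in either direction. Of the 8 lower genes, 6 had 0 UMIs in iridophores, and the call for rxfp2a is not backed by a bound against 3 UMIs. With TMM scaling the median over all features moved to −0.32 for leucophores, against 0.04, and to −0.67 for iridophores, against 0.49. The share of features past 2-fold that were higher then was 30.4% for leucophores, against 48.5%, and 22.6% for iridophores, against 63.3%. The 10 genes gave the same counts with TMM in these and the comparisons that follow.

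Against non-pigment cells, the 8 genes that reached 20 CPM were all at least 2-fold higher in xanthophores than in keratinocytes of run 1, beside 30.2% of 5335 features; 23.4% were lower and 53.6% past 2-fold in either direction. Their ratios ran from 15.5 for ngfrb (13.0 to 18.7) to 40.2 for kiss1 (28.9 to 57.7). The keratinocyte level of these genes was between 2.49% (kiss1) and 6.44% (ngfrb) of the xanthophore level. Of the pigment markers, plin6 had 2.35%, pax7a 3.40%, slc2a11b 3.76%, gch2 4.35% and XDH 8.79%, and the gate gene scarb1, which the keratinocyte gate limits, 0.315%, while ltk, which was low in both classes, had 32.5%. Whether free RNA gives the keratinocyte levels was not tested. In leucophores against keratinocytes, compared within each run, csf1ra, mc1r and adcy5 were at least 2-fold higher in both runs, out of 4 genes that reached 20 CPM in both, beside 24.7% of 4499 features, with 898 of the 4499 lower and 44.7% past 2-fold in either direction. The ratio for csf1ra was 37.2 in run 1 (29.3 to 46.9) and 215 in run 2 (117 to 449). With TMM scaling it was 20.7 in run 1 and 129 in run 2. In leucophores against fibroblasts, 6 genes reached 20 CPM in both runs, of which csf1ra, mc1r and adcy5 were higher and ltk and erbb3b lower in both, beside 14.9% and 19.1% of 4875 features and 33.9% in either direction. The erbb3b call rests on 7 UMIs of 1 fibroblast in run 1 and 3 UMIs in run 2, against 0 UMIs in leucophores. That fibroblast of run 1 had 0 UMIs of the fibroblast markers dcn, col1a1a and postnb. In run 2, 2 of the 3 UMIs lay in 1 fibroblast that had no dcn either. As with the other comparisons, the choice of the genes used these levels and nothing is read from the counts. With TMM scaling the share of features past 2-fold that were higher was 41.2%, against 56.3%, for xanthophores over keratinocytes, 32.6%, against 55.3%, for leucophores over keratinocytes, and 59.6%, against 43.8%, for leucophores over fibroblasts. The median log2 ratio over all features moved to −0.11, against 0.40, for xanthophores over keratinocytes. It moved to −0.50, against 0.28, for leucophores over keratinocytes and to 0.45, against 0.05, for leucophores over fibroblasts.

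Detection in single cells depends on depth, so shares are given as measured and after thinning every cell to 2000 UMIs, which left out 151 xanthophores of run 1, 6 leucophores of run 2 and 143 keratinocytes of run 1. The leucophores of run 2 and xanthophores of run 1 compared first lie in different libraries, so class and library cannot be told apart in their shares. A csf1ra UMI was seen in 97.4% of leucophores of run 2 and 82.6% of xanthophores of run 1 as measured, and in 72.2% (65.2 to 78.5) and 60.6% (58.1 to 63.1) after thinning. In keratinocytes of run 1, at a median of 7448 UMIs against 4923 in xanthophores, csf1ra was seen in 7.60% as measured and 4.63% after thinning. The other genes had thinned keratinocyte shares of 5.22% for rgs16, 4.73% for adcy5, 3.05% for ngfrb, 2.17% for mc1r, 1.77% for oprl1, 0.887% for kiss1 and 0.591% for rxfp2a. For mc1r the shares were 80.3% of leucophores and 53.4% of xanthophores, and 43.9% and 35.5% after thinning. For adcy5 they were 92.7% and 80.6%, and after thinning 54.5% and 54.8%. At equal depth the adcy5 shares thus lay within each other's intervals. For ngfrb the gap widened at equal depth, at 38.3% of leucophores and 41.5% of xanthophores as measured and 12.8% and 25.8% after thinning. For rxfp2a the higher share of leucophores was not seen at equal depth, with 28.5% and 16.6% as measured and 7.49% (4.15 to 12.2) and 8.26% (6.91 to 9.76) after thinning. For oprl1 the thinned shares were 3.74% of leucophores and 25.9% of xanthophores, and for kiss1 0 of 187 leucophores, which allows up to 1.95% by the exact interval, and 19.6% of xanthophores.

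Several of the genes were spread unevenly among the xanthophores themselves. If every xanthophore had the same level and differed only in depth, 94.9% would be counted with an rgs16 UMI, and 73.0% were. The corresponding shares were 62.9% and 38.0% for oprl1, 48.5% and 28.1% for kiss1, and 59.4% and 41.5% for ngfrb. For csf1ra and adcy5 the shares without thinning lay nearer, at 82.6% beside 87.1% and 80.6% beside 84.3%. After thinning the measured shares were 60.6% beside 68.4% for csf1ra and 54.8% beside 63.3% for adcy5. They were 19.6% beside 26.1% for kiss1, 25.8% beside 33.0% for ngfrb, 25.9% beside 38.7% for oprl1 and 60.8% beside 84.4% for rgs16. In percentage points csf1ra and adcy5 were thus no nearer at equal depth than kiss1 and ngfrb, and rgs16 and oprl1 had the widest gaps. The thinned means were 1.15 and 1.00 UMIs for csf1ra and adcy5, and 0.302 and 0.401 for kiss1 and ngfrb. The variance of thinned counts was 3.37 times the mean for rgs16, 2.63 times for oprl1 and 1.83 times for kiss1, beside 1.52 times for mc1r and 3.74 times for the gate gene scarb1. The 10% of xanthophores with the most held 76.6% of rxfp2a UMIs, 66.4% of kiss1 UMIs, 58.5% of oprl1 UMIs and 31.5% of csf1ra UMIs. The mean counts of these genes were 0.285, 0.725, 1.13 and 2.77 UMIs per cell, and this share rises as the mean falls, also at 1 level. The share expected at 1 level was not computed. Since this share, the variance ratio and the gap in percentage points all depend on the mean, they do not rank the genes. At least 10 rgs16 UMIs were counted in 254 xanthophores, or 15.4%, with a highest value of 55 in a cell. Among leucophores of run 2 without thinning, mc1r was seen in 80.3% beside 91.2% at 1 level, and oprl1 in 14.0% beside 39.9%. There csf1ra was seen in 97.4% beside 97.1%, a share too near its upper limit to show a gap. Thinned leucophores gave other gaps. The mc1r shares were then near each other, at 43.9% beside 46.8%, and those of csf1ra were 72.2% beside 78.3%. For adcy5 they were 54.5% beside 67.3%, and for oprl1 3.74% beside 7.21%. For mc1r and csf1ra the expected shares lay within the exact intervals of the measured ones, 36.6 to 51.3 and 65.2 to 78.5. These values therefore do not order mc1r and csf1ra by unevenness at equal depth.

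**Figure D4:**
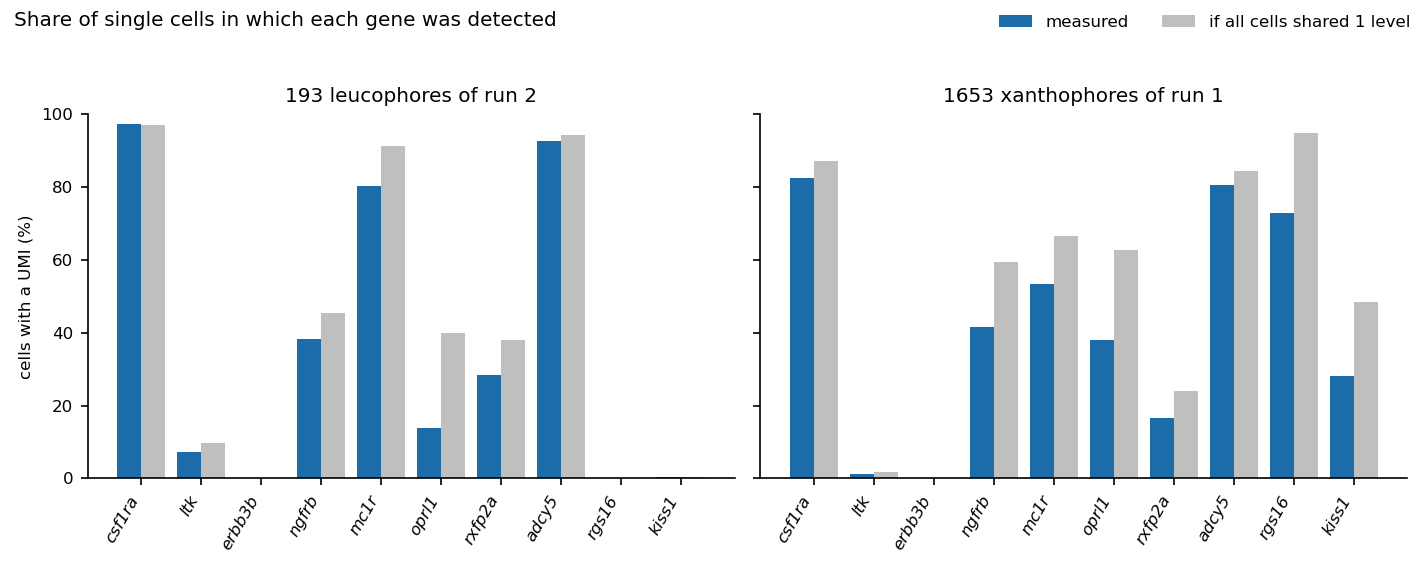
Share of cells with a UMI of each gene (%, blue) beside the share that depth alone would give if all cells of the class had 1 level (grey), for leucophores of run 2 and xanthophores of run 1, without thinning. In xanthophores the measured bar is below the grey one by the widest margins for oprl1, rgs16 and kiss1, and in leucophores oprl1 shows the widest gap, and rgs16, erbb3b and kiss1 are at or near 0.

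After thinning, 15.1% of xanthophores held UMIs of csf1ra, mc1r and adcy5 together, as did 16.6% of leucophores of run 2, beside 39.9% and 75.1% without thinning. The share expected if the 3 were unrelated was not computed. For pairs, csf1ra with mc1r was seen in 23.4% of xanthophores (21.5% if unrelated) and 33.2% of leucophores (31.7%). Shares for csf1ra with adcy5 were 35.9% (33.2%) and 38.5% (39.4%), and for mc1r with adcy5 21.0% (19.4%) and 22.5% (23.9%). The median xanthophore held UMIs of 3 of the 10 genes and the median leucophore of 2. Thinned xanthophores with a kiss1 UMI (294 of 1502) had higher levels of most of the other genes than those without. ngfrb stood at 369 CPM (322 to 422) in cells with kiss1 and 159 CPM (144 to 176) in cells without. oprl1 stood at 422 CPM (371 to 478) with kiss1 and 202 CPM (184 to 220) without. In cells with kiss1 and without, rxfp2a stood at 95.2 and 42.6 CPM, csf1ra at 854 and 509 CPM, mc1r at 400 CPM (350 to 454) and 244 CPM, and adcy5 at 665 and 462 CPM. For rgs16 the levels were nearer, at 1117 CPM (1034 to 1206) and 882 CPM (845 to 920), and the shares of cells with an rgs16 UMI were 60.2% and 60.9%. The carotenoid oxygenase gene bco2b stood at 714 CPM in cells with kiss1 and 473 CPM in cells without, and scarb1, which set the gate, at 2347 and 1839 CPM. These last genes, which are not among the 10, were thus higher in cells with kiss1 too. Other genes went the other way. Over the thinned xanthophores kiss1 had a Pearson r of −0.17 with spra, −0.13 with igfbp6b and −0.08 with sox5. With bco2b, scarb1 and pax7a it had 0.10, 0.08 and 0.03. Thinned cells hold equal totals, so not all features can be higher, and how many were was not counted. Whether the rise is particular to the 10 genes was not tested. All cells come from 1 library, so these are values of that library with no test.

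**Figure D5:**
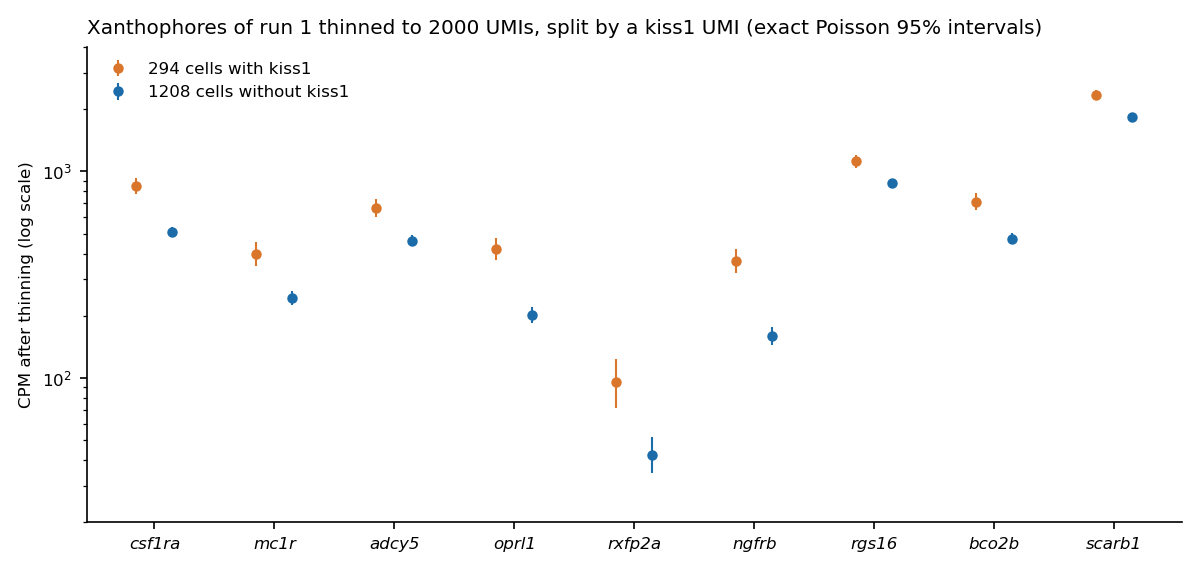
CPM (log scale) after thinning to 2000 UMIs of 7 of the genes, of bco2b and of scarb1 in xanthophores of run 1 with a kiss1 UMI (orange) and without (blue), with exact Poisson 95% intervals over the summed cells. The levels in cells with kiss1 are above those in cells without for each gene shown, and the gap is narrow for rgs16 and scarb1.

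As correlations over 1502 single xanthophores of 1 library, the pairs among the genes were weak. The highest was between kiss1 and ngfrb (Pearson r = 0.23), followed by csf1ra and kiss1 (r = 0.20) and oprl1 and kiss1 (r = 0.18), while ngfrb and rgs16 had r = −0.05. Counts this sparse hold r down, and no finding is drawn from these values. The features with the highest r over the same cells were socs3a for rgs16 (r = 0.26), KIF5B for ngfrb (r = 0.27), PCDH9 for rxfp2a (r = 0.22), sult1st6 for kiss1 (r = 0.29) and KIF5B for adcy5 (r = 0.20), out of 3122 features with a UMI in at least 10% of cells. Over the 11 class sums, which share libraries and differ in depth, the highest r was with pde8a for adcy5 (0.995), cdh11 for ltk (0.986), tmem163a for kiss1 (0.983), slc2a11b for oprl1 (0.983), gxylt2 for rxfp2a (0.982), kank3 for mc1r (0.981), GAS2 for csf1ra (0.978), EDNRB for ngfrb (0.973) and JAKMIP2 for rgs16 (0.953). With erbb3b it was mxra8b (0.999), from very few UMIs. Each of these is the highest of 4366 features (4367 for erbb3b) over only 11 points, where a high r is easily reached, so nothing is read from them.

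At the gate edge, the 181 xanthophores just inside, with scarb1 at 2 UMIs, held csf1ra at 526 CPM, rgs16 at 902 CPM and kiss1 at 120 CPM. The 211 cells just outside, with scarb1 at 1 UMI and sox5 present, held them at 455, 684 and 97.2 CPM. The 184 cells with scarb1 of at least 2 but no sox5, also outside, held them at 701, 915 and 239 CPM. Run 1 had only 159 unassigned cells with sox5 present and scarb1 below 2 UMIs. Some of the 211 cells therefore lie in other classes, and which classes was not counted.

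Beside the 10 genes, 136 other genes of receptors, ligands, G proteins and the cAMP path were matched in the files. In leucophores against xanthophores of run 1, 45 reached 20 CPM, and 7 were at least 2-fold higher and 14 lower, with a median log2 ratio of −0.45, beside 16.0% higher, 17.0% lower and a median of 0.04 over all features. With TMM scaling 5 were higher and 16 lower. Of 8 receptor genes 1 was higher and 4 were lower, of 3 ligand genes 2 and 1, and of 19 genes for G proteins and their regulators 3 and 2. Of 8 adenylyl cyclase and phosphodiesterase genes 1 was higher and 4 were lower, and of 7 genes for protein kinase A, its anchors and CREB 0 were higher and 3 lower. The regulator gene rgs5b stood at 1193 CPM in leucophores against 58.0 CPM in xanthophores, a ratio of 20.6 (17.1 to 24.6), so that rgs5b and rgs16 went in opposite directions. In run 2 leucophores held rgs5b at 921 CPM. PDE8B, a cAMP phosphodiesterase gene, stood at 212 CPM against 31.4 CPM, 6.76-fold higher in leucophores (4.44 to 9.94). Lower genes included sik1, a kinase gene induced by cAMP, at 293 against 2226 CPM, and prkar1b, a regulatory subunit of protein kinase A, at 73.2 against 389 CPM. The prostaglandin receptor gene ptger2a, PDE3B, the mu opioid receptor gene oprm1 and the cyclase gene adcy7 had 0 UMIs in leucophores of run 1, against between 51.8 and 96.1 CPM in xanthophores. The bounds against 3 UMIs were at least 4.37-fold lower for ptger2a, 2.92-fold for PDE3B, 2.66-fold for oprm1 and 2.36-fold for adcy7.

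In iridophores against xanthophores 53 of the 136 genes reached 20 CPM, and 11 were higher and 22 lower, beside 31.7% and 18.4% of all features. The kinase A anchor gene akap12b stood at 1121 CPM in iridophores against 3.74 CPM in xanthophores, a ratio of 300 (190 to 482), and fibroblasts held it at 131 and 274 CPM. prkar1b had 0 UMIs in iridophores, at least 6.02-fold lower, and RGS2 likewise, at least 2.52-fold lower. With TMM scaling 3 were higher and 31 lower. In xanthophores against keratinocytes of run 1, 30 of 45 genes were higher and 8 lower, beside 30.2% and 23.4% of all features, or 29 and 12 with TMM scaling. They included EDNRB, an endothelin receptor gene, at 795 against 33.1 CPM, GNAZ, an inhibitory G protein subunit gene, at 482 against 21.7 CPM, and pde8a, a cAMP phosphodiesterase gene, at 422 against 15.6 CPM. In the other direction stood egfra, at 16.5 against 541 CPM. In leucophores against keratinocytes 22 of 38 genes were higher and 6 lower in both runs, beside 1111 and 898 of all 4499 features, or 18 and 13 with TMM scaling. GNAZ stood at 329 and 375 CPM in leucophores of runs 1 and 2, against 21.7 and 5.18 CPM in keratinocytes, and rgs12b at 359 and 279 CPM against 21.7 and 11.0 CPM. In leucophores against fibroblasts 16 of 37 genes were higher and 4 lower in both runs, beside 14.9% and 19.1% of all features, or 20 and 2 with TMM scaling, among them ptger2a, with 0 UMIs in leucophores of run 1 and 3.59 CPM in run 2 leucophores against 763 and 302 CPM in fibroblasts.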

How the data were processed

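UMI counts, not normalized, were deposited as a gene by barcode table of each run. They come from Cell Ranger 7.1.0 per the submitters' processing notes, and no genome build is given in the sources used here. These 10 genes and the gene lists were chosen with earlier results of these data known. Barcodes were kept from 500 UMIs and 300 detected genes upward where 13 mitochondrial features took 20% of UMIs or less (4503 of 4702 in run 1, 577 of 614 in run 2). Scrublet in scanpy 1.11.5 called 3 and 1 doublets by its own threshold, so the top 4% of scores were removed instead (156 and 21 barcodes). Cells were gated by marker UMIs. A non-pigment class needed at least 3 UMIs from at least 2 of its markers, at least 3 times those of the next list, and scarb1, slc23a4, pmela and pnp4a each at 1 UMI or fewer. This left 1131 and 102 cells unassigned, and 2 cells in more than 1 pigment gate.

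Counts were summed per class and run where at least 10 cells were present and scaled to the total (CPM), with exact Poisson intervals for levels, exact conditional intervals for ratios and exact binomial intervals for shares, all at 95% (scipy 1.17.1). UMIs share cells and library steps, so intervals cover counting error only. A feature was counted as past 2-fold on log2(CPM + 10), with at least 20 CPM in either sum. A gene at 0 was set against 3 UMIs per library. Both libraries belong to 1 group, so no test was made and no p-value is given. The calling steps were tested on simulated data. Other genes of the path are named where they were past 2-fold, at most 8 per comparison by size; likeness gives the highest Pearson r, among features with at least 50 CPM in a class sum or a UMI in at least 10% of xanthophores. The alternatives were another added CPM, no level filter, TMM scaling (edgeR 4.0.16), no doublet removal, 1 run alone, other gates, another cell filter, means over cells and another thinning depth. Transcripts of near-identical gene copies may share counts.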

Additional observations from a re-analysis of the deposited data

How the results depend on the processing

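No paired analysis was possible because both libraries belong to 1 group and no test compares groups. Of the 10 genes, no log2 ratio reversed. With 50 CPM added, rxfp2a was no longer past 2-fold in leucophores against xanthophores (log2 −0.70) or xanthophores against keratinocytes (0.99), nor were ngfrb in iridophores (−0.86) and ltk (−0.85) and erbb3b (−0.67) in leucophores against fibroblasts. For ngfrb in leucophores run 1 decides: without it the ratio was past 2-fold against keratinocytes (2.12) and fibroblasts (2.63). The same calls were reached with 1 CPM added (1.15 and 1.15) and without doublet removal (1.18 and 1.15). Counts of features past 2-fold moved by over 1.5 times in some settings. For leucophores over xanthophores, 881 were higher and 936 lower. These became 251 and 338 with 50 CPM added, while 1441 were lower with no filter and 1448 with TMM. For iridophores, 2244 higher and 1300 lower became 564 and 500 with 50 CPM added and 680 and 2325 with TMM, and 2345 were lower with no filter. For xanthophores over keratinocytes, 1611 and 1248 became 602 and 659 with 50 CPM added, and 1934 were lower with TMM. For leucophores over keratinocytes, 1111 and 898 became 430 and 505 with 50 CPM added, and 1586 were lower with TMM; 1 run alone gave 1601 to 1908 higher and 1164 to 1357 lower. For leucophores over fibroblasts, 725 and 930 became 334 and 427 with 50 CPM added; 1 run alone gave 1464 to 1527 higher and 1771 to 1841 lower. The count with 1 run needs a call in that run alone; the cause of the other moves was not tested. Levels of the 10 genes stayed within their counting interval in 38 of 50 alternatives for xanthophores and 42 of 50 for leucophores of run 2. Shares at 1 depth moved outside their interval in 18 of 20 alternatives for xanthophores and 11 of 20 for leucophores, since other depths and no thinning change the UMIs per cell. Depth limits the iridophore sum most, at 46384 UMIs.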
